A study of Mus musculus with 4 samples.

Results

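The 57 genes described here encode the proteins that copy DNA and the regulators that open S phase. They were chosen by name, as replication licensing factors, polymerases, nucleotide synthesis enzymes, G1/S cyclins and E2F factors. No measured value entered that rule, but earlier results of these data were known when the genes were chosen. All 57 were among the 18526 genes of the deposited tables. After a filter on low counts 56 of them were tested, among 15236 genes in all, and Fen1 was not. The cells were microglia, the macrophages that reside in the brain, sorted by fluorescence from the telencephalon of C57BL/6 mouse embryos at embryonic day 14. One genotype, Arid1acKO (here cKO), has Arid1a conditionally deleted, and the other, Arid1afl/fl, carries the floxed allele and serves as the control. Arid1a encodes a subunit that helps the BAF complex, an ATP-driven remodeller of nucleosomes, to bind DNA. The labels list 4 samples, and values were analysed for 3 libraries, cKO replicate 2 and control replicates 5 and 6, while cKO replicate 1 was not analysed here. The labels name neither the Cre driver nor the number of embryos per sample.

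The libraries held 17262261 counted reads for the cKO, 18608979 for control 5 and 13774075 for control 6. Levels are given as CPM, read counts scaled to the library total, after TMM scaling, which corrects for differences in library composition. The targeted gene Arid1a stood at 68.9 CPM in the cKO library, 109 in control 5 and 130 in control 6, lowest in the library labelled cKO (log2 fold change -0.80, adjusted p = 0.901). These counts cover the whole gene, so reads from exons outside a deleted part can persist. Of 12 microglia markers, 11 were lowest in the cKO library (91.7%, against 31.1% of all genes tested) and 0 were highest (against 38.0%). By edgeR 1 of them was called, Siglech (log2 fold change -4.08, adjusted p = 0.0324). The summed level of the 12 was 17886.5 CPM in the cKO library, against 24669.5 and 34408.9 CPM in the controls. Of 10 neural progenitor markers, the defining genes Sox2 and Eomes were listed in neither table, and the other 8 summed to 207 CPM in the cKO library and to 143 and 139 CPM in the controls. That difference came from 1 gene, Vim, at 102 CPM against 36.5 and 18.4, and without it the other 7 summed to 105 CPM in the cKO library and to 106 and 121 CPM in the controls. Most of that remainder was Nes, at 97.0 CPM in the cKO library and 97.0 and 113 CPM in the controls. In control 5, 2 of the 8 progenitor markers listed had 0 reads. The 8 neuron markers summed to 130 CPM in the cKO library and to 159 and 183 CPM in the controls, so neural transcripts were present in all 3 libraries. In these sorted but bulk samples a different share of cycling cells and a different amount of RNA per cycling cell cannot be told apart. The part of cell makeup in the levels below was not tested.

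Eukaryotic DNA replication is prepared in G1, when the origin recognition complex, Cdc6 and Cdt1 load the MCM helicase onto origins. At the start of S phase, cyclin E with Cdk2 and the factors Cdc45 and GINS turn the loaded helicase on, and primase, the polymerases, the PCNA clamp and its loader then build the new strands. Many of these genes are transcribed in late G1 by activating E2F factors, which are released when cyclin D and cyclin E kinases phosphorylate the retinoblastoma protein. Microglia colonise the embryonic brain and multiply there, so a transcript set of this kind is a usual readout of their proliferation.

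No gene of the replication set passed the test. The cKO library was the highest of the 3 in 22 of the 56 tested members, the lowest in 15 and between the controls in 19. Over all genes tested it was the highest in 38.0% and the lowest in 31.1%, and the shares among the members were 39.3% and 26.8%. The median log2 fold change of the members was 0.13, beside 0.05 over all genes tested. These placements depend on the scaling: with library totals alone the cKO library was the highest in 30 members (53.6%, against 44.3% of all genes) and the lowest in 8 (14.3%, against 26.3%), and the medians were 0.25 and 0.17. The edgeR quasi-likelihood test called 0 members, and the smallest adjusted p was 0.799 (Pold1). Of all genes tested, 6 were called, or 0.0394%. The DESeq2 Wald test also called 0 members, while it called 223 genes (1.46%). At an unadjusted p under 0.05 there was 1 member, Pold1, where 6.0% of all genes reached that level. With 1 cKO library, only the 2 controls give a spread within a group, and both tests also draw on the spread of other genes.

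**Figure D1:**
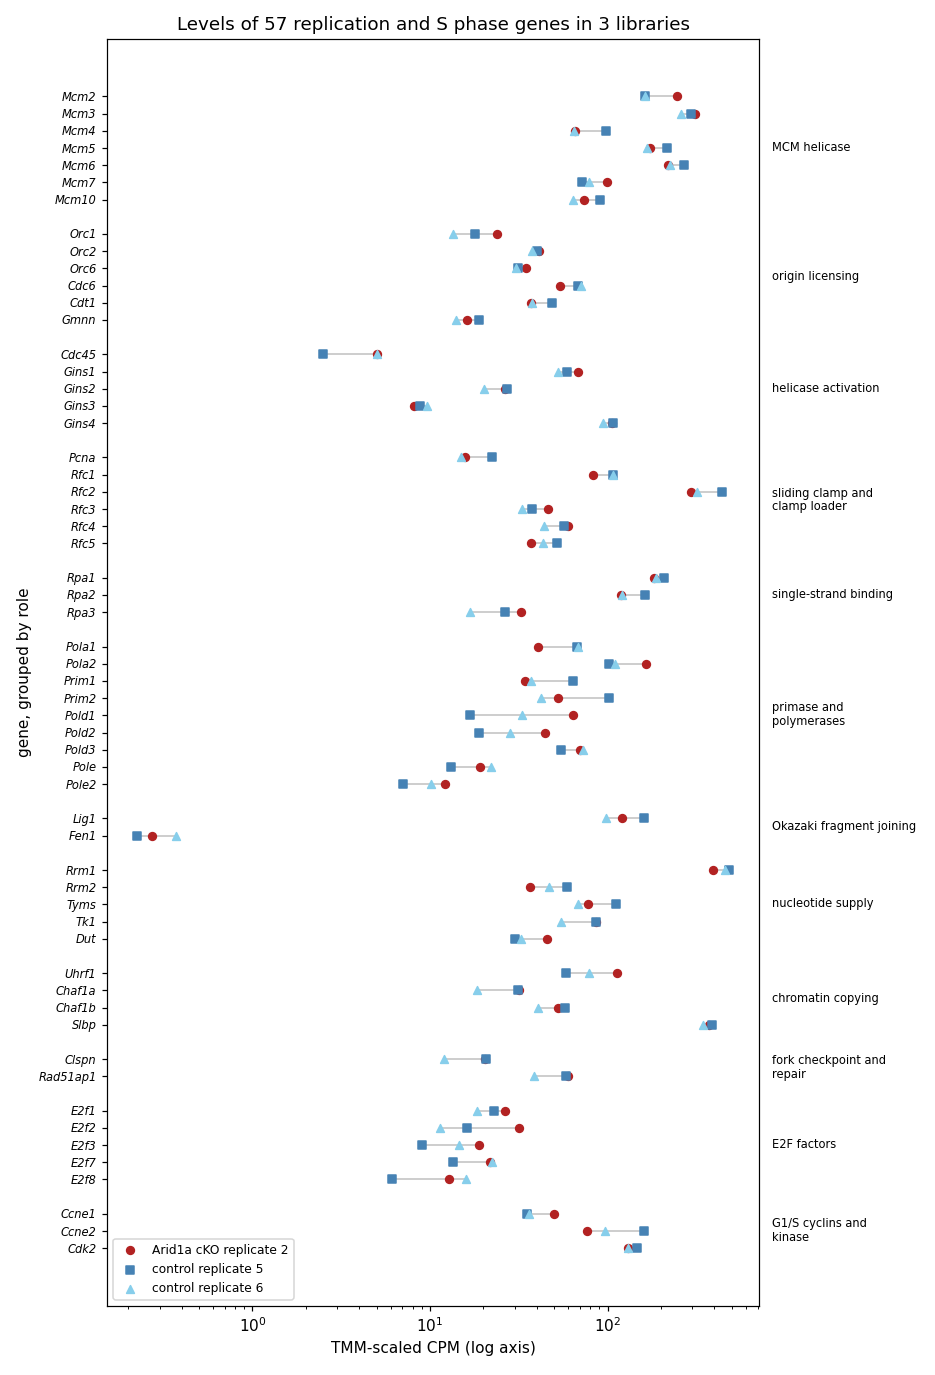
TMM-scaled CPM on a log axis for each of the 57 genes, grouped by role, in the Arid1a cKO library (red circle), control 5 (dark blue square) and control 6 (light blue triangle), with a grey line over the range of the 3. The cKO point lies to the right of both controls for Pold1 and E2f2 and to the left of both for Pola1 and Ccne2.

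The controls differed from each other in these genes. Control 5 was above control 6 in 39 of 56 members (69.6%), where it was above in 44.7% of all genes tested. Control 5 was the highest library in 26 members (46.4%, against 31.8% of all genes) and control 6 in 8 (14.3%, against 30.3%). Control 6 was the lowest in 27 (48.2%, against 26.3%). The summed level of the members was 5142 CPM in control 5, 4354 CPM in control 6 and 4758 CPM in the cKO library, between them. The cKO library was above control 5 in 27 members and above control 6 in 36, so which control is used decides the count. Over all 15236 genes tested it was above control 5 in 8462 and above control 6 in 7816. On the log2 scale, the cKO difference from the control mean was larger than the gap between the controls in 24 members (42.9%, against 46.1% of all genes). The cKO library lay outside both controls in 37 members (66.1%, background 69.1%). It was at least 25% above the higher control in 11 members (19.6%, background 23.9%) and at least 20% below the lower control in 5 (8.93%, background 19.6%). These 16 members stayed highest or lowest under all 3 other scalings tried, but the margins were not recounted there. With library totals alone the members' median log2 fold change moved from 0.13 to 0.25, a shift that narrows the margins of the lower members. Their values are given with their roles below.

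Short words that E2F factors are known to bind were common in the promoters of the set. RefSeq promoter windows on GRCm38.p6, from 250 bases before to 50 bases after a gene start, were at hand for 48 of the 57 genes, in 57 windows. They were searched on both strands for the E2F words TTTCCCGC, TTTCGCGC, TTTGCCGC and TTTGGCGC. A word was found in 20 member windows (35.1%), in 3.84% of the 13225 windows of tested genes and in 2.26% of all 32851 windows. The CCAAT box, CCAAT on either strand, was in 63.2% of member windows and 37.8% of windows of tested genes, and overlapped an E2F word in 1 member window. The GC box, GGGCGG on either strand, was in 71.9% and 59.8%, and overlapped an E2F word in none. Of the 16 members outside both controls by those margins, 8 had an E2F word, beside 20 of all 48 members with a window (41.7%). Whether words were more common among the 16 was not tested. For each of the 8 the stretch around a word is shown, 30 bases on the gene's strand with the word in capitals (GCGGGAAA, GCGCGAAA and GCGCCAAA are words read from the other strand). In the cKO library the first 6 were highest and Pola1 and Cdc6 lowest, so the words stand in genes on either side. Mcm7 also has another word that is not shown, and Ccne2, among the 16, had no window to search.
Pold1, chr7:44548766-44548795, minus strand: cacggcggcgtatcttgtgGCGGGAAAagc
E2f2, chr4:136172294-136172323, plus strand: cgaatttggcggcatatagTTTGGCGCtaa
E2f3, chr13:29986056-29986085, minus strand: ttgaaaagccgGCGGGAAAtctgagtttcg
Uhrf1, chr17:56304117-56304146, plus strand: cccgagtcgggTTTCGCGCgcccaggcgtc
Mcm7, chr5:138171849-138171878, minus strand: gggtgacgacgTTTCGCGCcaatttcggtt
Orc1, chr4:108579416-108579445, plus strand: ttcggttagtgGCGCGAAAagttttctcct
Pola1, chrX:93632275-93632304, minus strand: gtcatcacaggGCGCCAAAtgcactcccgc
Cdc6, chr11:98908002-98908031, plus strand: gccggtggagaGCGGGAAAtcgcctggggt
The median change on the log2 scale was 0.23 over the 20 members with a word and 0.17 over the 27 with a window but no word. A word is a match of letters and not a measured binding site.

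The MCM helicase unwinds DNA at the fork as a ring of Mcm2 to Mcm7, and Mcm10 helps to activate it. Mcm2 stood at 245 CPM in the cKO library and at 162 CPM in each control (log2 fold change 0.60, SE 0.35, adjusted p = 0.955). Mcm7 had 99.1 CPM in the cKO library against 72.1 and 78.8. Mcm3, the most abundant of the ring per kilobase of exon, had 313 CPM against 293 and 260. The other 4 members lay below the controls on average, with log2 fold changes from -0.30 (Mcm4) to -0.07 (Mcm10), and only Mcm6 was lowest in the cKO library. Mcm2 (chromosome 6, 88883474 to 88898780, minus strand) had the largest log2 fold change of the ring. Per kilobase of exon, the levels of the 6 ring genes spanned 4.54-fold in the cKO library, 4.80-fold in control 5 and 3.89-fold in control 6, so unequal transcript levels within the ring were common to all 3.

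Origin licensing genes lay on both sides of the controls. Orc1, the cell-cycle-regulated subunit of the origin recognition complex, had 23.9 CPM in the cKO library against 18.0 in control 5 and 13.4 in control 6 (log2 fold change 0.61, SE 0.59). Cdc6, the ATPase that loads MCM with it, had 53.8 CPM against 67.8 and 71.3 (log2 fold change -0.37, SE 0.42). Both were outside the range of the controls, in opposite directions. The other 4, Orc2, Orc6, Cdt1 and Gmnn, had log2 fold changes from -0.21 to 0.17. Gmnn encodes geminin, the inhibitor of the loader Cdt1, and the Cdt1 to Gmnn ratio was 2.28 in the cKO library against 2.57 and 2.66. On the opposite strand, Nif3l1 covers 29.8% of the exon bases of Orc2, and counts without strand cannot tell their reads apart.

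Of the helicase activators, the GINS subunits were close to the controls. Gins4 had 106 CPM in the cKO library against 107 and 94.8. Gins1, Gins2 and Gins3 had log2 fold changes of 0.29, 0.15 and -0.19, though Gse1 covers 67.3% of the exon bases of Gins2 from the opposite strand. Cdc45 was low throughout, with 92 reads in the cKO library, 45 in control 5 and 68 in control 6. The cKO and control 6 levels of Cdc45 were both 5.04 CPM, so the difference from control 5 had no counterpart in control 6.

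The subunits of the clamp loader did not lie on the same side of the controls. Rfc1, the large loader subunit, had 83.2 CPM against 108 and 107, outside a narrow control range (log2 fold change -0.37, SE 0.39). Rfc2 had 294 CPM against 440 and 319 and Rfc5 had 36.9 against 51.7 and 43.3. Rfc3 and Rfc4 were instead highest in the cKO library, with 46.2 CPM against 37.6 and 32.9 and with 59.6 against 56.8 and 43.9. The 5 loader subunits, which work as 1 complex, thus divided into 3 lower and 2 higher. Lat2, an adaptor gene of myeloid and lymphoid cells, covers 15.1% of the exon bases of Rfc2 from the opposite strand and had 22.1 CPM against 55.6 and 43.1. Its part in the Rfc2 counts was not tested. Pcna, the clamp itself, had 15.8 CPM against 22.3 and 15.0, between the controls. GENCODE M21 names 2 Pcna pseudogenes, among which reads could be divided, so its low level is uncertain.

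The single-strand binding protein RPA coats unwound DNA. Rpa1 had 183 CPM in the cKO library against 208 and 188, and Rpa2 had 120 against 163 and 121. For the smallest subunit Rpa3 the cKO library was instead the highest, with 32.6 CPM against 26.5 and 16.9 (log2 fold change 0.59, SE 0.55). On the log2 scale, the gap between the controls was larger than the cKO difference from their mean in all 3 RPA genes.

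Pold1, the catalytic subunit of the lagging-strand polymerase delta (ENSMUSG00000038644, chromosome 7, 44532746 to 44548849, minus strand), was counted 1161 times in the cKO library, 299 times in control 5 and 446 times in control 6. Scaled, the cKO level was 63.6 CPM (exact Poisson interval 60.0 to 67.3) against 16.7 and 33.0 CPM, the largest log2 fold change among the members at 1.35 (SE 0.53, p = 0.0351 and adjusted p = 0.799 by edgeR). That level is 1.92 times the higher control. Pold2, the accessory subunit that binds Pold1, had 44.5 CPM against 18.9 and 28.1 (log2 fold change 0.92, SE 0.51). Pold3 had 70.3 CPM against 54.5 and 72.6, within the control range, so the polymerase delta subunits did not stand together.

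Polymerase alpha and primase, which lay the first bases of each fragment, were mixed. The catalytic subunit Pola1 (chromosome X, 93304767 to 93632155, minus strand) had 40.5 CPM in the cKO library against 67.5 and 68.0, a log2 fold change of -0.74 (SE 0.43, adjusted p = 0.945). Its partner Pola2 (chromosome 19, 5940543 to 5964206, minus strand) had 164 CPM against 102 and 110, a log2 fold change of 0.63 (SE 0.37, adjusted p = 0.95). In both genes the controls lay close together and the cKO library lay well outside them, on opposite sides. The primase genes Prim1 and Prim2 had 34.2 and 52.5 CPM in the cKO library, with 63.6 and 101 in control 5 and 36.8 and 41.9 in control 6, so only control 5 was far above. Pole and Pole2, of the leading-strand polymerase epsilon, had log2 fold changes of 0.12 and 0.50.

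**Figure D2:**
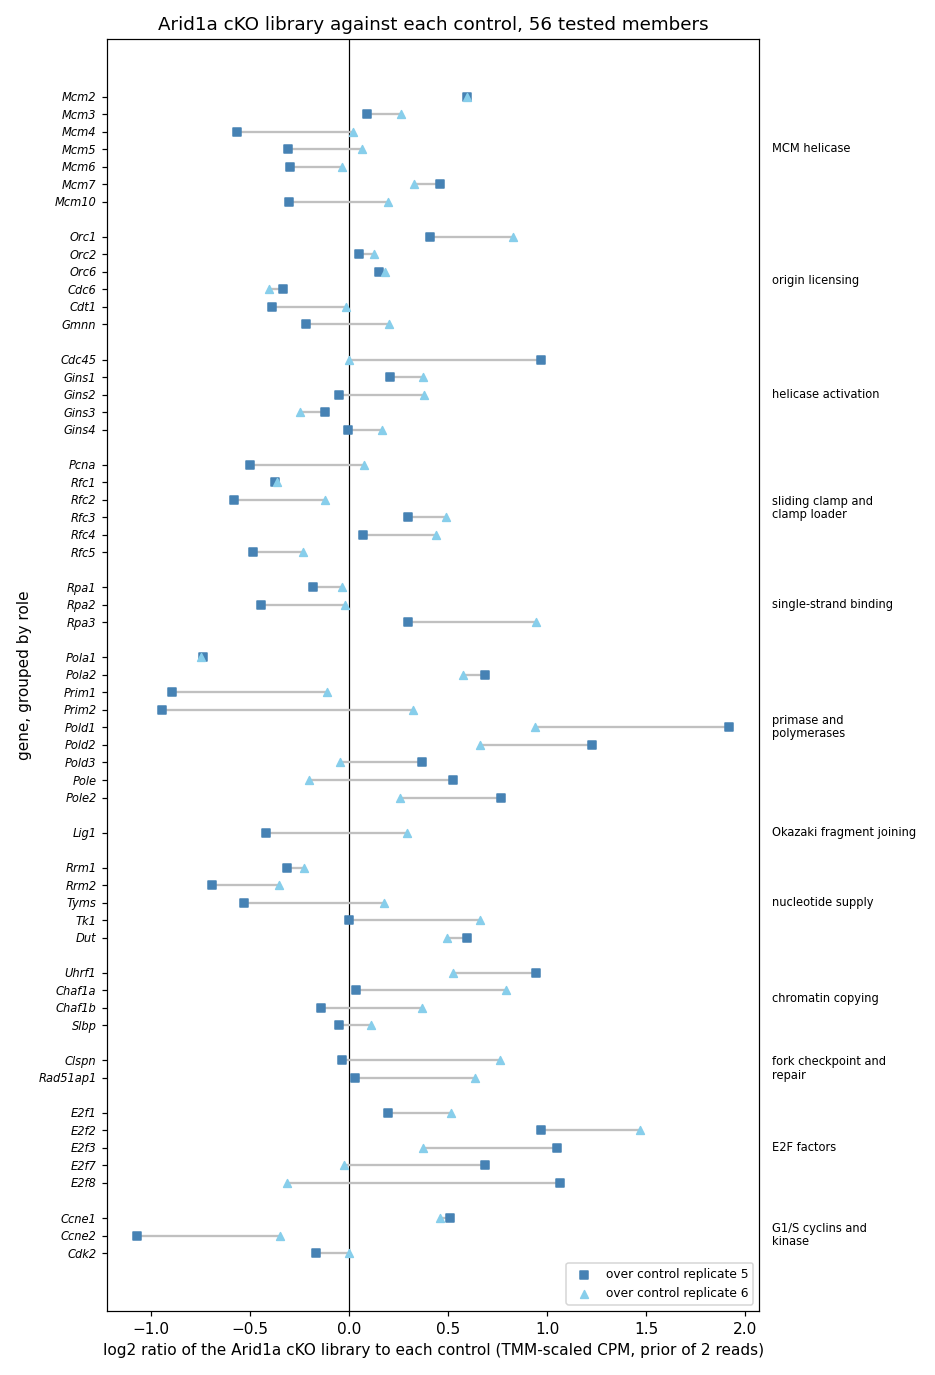
Log2 ratio of the Arid1a cKO library to control 5 (dark blue square) and to control 6 (light blue triangle) for the 56 tested genes, grouped by role, with a grey line joining the 2 values of a gene. Lines that cross 0 are genes where the cKO library lay between the controls, as for Prim2 and E2f8, and the 2 ratios of a gene share the cKO library. Pold1 has the highest ratio, over control 5.

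Joining of the lagging-strand fragments needs the nuclease Fen1 and the ligase Lig1. Lig1 had 120 CPM in the cKO library against 160 and 98.0, between the controls. Fen1 had 5, 4 and 5 reads, too few to test. Genes on the opposite strand, Tmem258 and Gm10143, cover 84.2% of the exon bases of Fen1, and the share of its reads left uncounted for that reason was not tested.

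Nucleotide supply genes also lay on both sides of the controls. Rrm1, the large subunit of ribonucleotide reductase, stood at 392 CPM in the cKO library against 486 and 458. Rrm2, the subunit whose level follows S phase, had 36.5 CPM against 58.9 and 46.7 (log2 fold change -0.53, SE 0.46). Both subunits were thus lowest in the cKO library. Dut, which clears dUTP so that uracil is kept out of DNA, was highest, with 45.7 CPM against 30.2 and 32.4 (log2 fold change 0.55, SE 0.46). The thymidylate enzymes Tyms and Tk1 had 77.6 CPM against 112 and 68.5 and 86.3 against 86.4 and 54.5, within the control range.

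Genes that copy chromatin behind the fork were level with the controls or above them. Uhrf1, which brings the maintenance methyltransferase to newly made DNA (chromosome 17, 56303321 to 56323486, plus strand), had 113 CPM in the cKO library against 58.4 and 78.1 (log2 fold change 0.72, SE 0.40, adjusted p = 0.931). The histone chaperone subunits Chaf1a and Chaf1b had 31.9 CPM against 31.2 and 18.4 and 52.5 against 57.9 and 40.7. Ubxn6 covers 52.5% of the exon bases of Chaf1a from the opposite strand. Slbp, which binds histone mRNA, was among the most abundant members, at 373 CPM against 386 and 345. The fork checkpoint gene Clspn had 20.3 CPM against 20.8 and 11.9, and the repair gene Rad51ap1 had 59.8 against 58.5 and 38.5. For these last genes the cKO library sat at the level of control 5.

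The activating E2F genes were each highest in the cKO library, and the repressing E2F genes were not. E2f2 (chromosome 4, 136172394 to 136196057, plus strand) had 578 reads in the cKO library, 288 in control 5 and 153 in control 6. That is 31.6 CPM (exact Poisson interval 29.1 to 34.3) against 16.1 and 11.3, a log2 fold change of 1.20 (SE 0.57, p = 0.0688, adjusted p = 0.878 by edgeR). That level is 1.97 times the higher control, the widest such margin of the set. E2f3 had 18.9 CPM against 9.05 and 14.5, and E2f1 had 26.4 against 23.0 and 18.5. The repressors E2f7 and E2f8, which damp the same targets later in S phase, had 21.8 CPM against 13.5 and 22.2 and 12.9 against 6.09 and 16.0, in each case between the controls. Summed, the activators were 2.22 times the repressors in the cKO library, 2.46 times in control 5 and 1.16 times in control 6, so this ratio did not set the cKO library apart. The difference between the activators and the repressors was not tested.

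The cyclin E genes lay on opposite sides of the controls. Ccne1 (chromosome 7, 38097984 to 38107534, minus strand) had 49.8 CPM in the cKO library against 35.0 and 36.2 (log2 fold change 0.48, SE 0.45). Ccne2 (chromosome 4, 11191351 to 11204779, plus strand) had 76.1 CPM against 160 and 96.8, the lowest log2 fold change of the set at -0.75 (SE 0.45, adjusted p = 0.956). The cKO library lay outside both controls in each gene, though control 6 was much nearer to it for Ccne2 than control 5. Their kinase partner Cdk2 had 130 CPM against 146 and 131. On the opposite strand Ints8 covers 17.4% of the exon bases of Ccne2.

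Ratios of paired genes within a library do not depend on how the libraries are scaled. For the 11 ratios computed, the pairs and the gene placed on top were chosen after their values were seen, and several share Pold1 or Mcm2, so the ratios are a description and were not tested. The Ccne1 to Ccne2 ratio was 0.654 in the cKO library, 0.218 in control 5 and 0.374 in control 6. The Pola2 to Pola1 ratio was 4.06 against 1.51 and 1.62, 2.59 times the control mean. The Pold1 to Pole ratio was 3.34 against 1.27 and 1.51, and Mcm2 to Mcm6 was 1.11 against 0.599 and 0.719. Rrm2 to Rrm1 was lowest in the cKO library, at 0.0933 against 0.121 and 0.102.

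**Figure D3:**
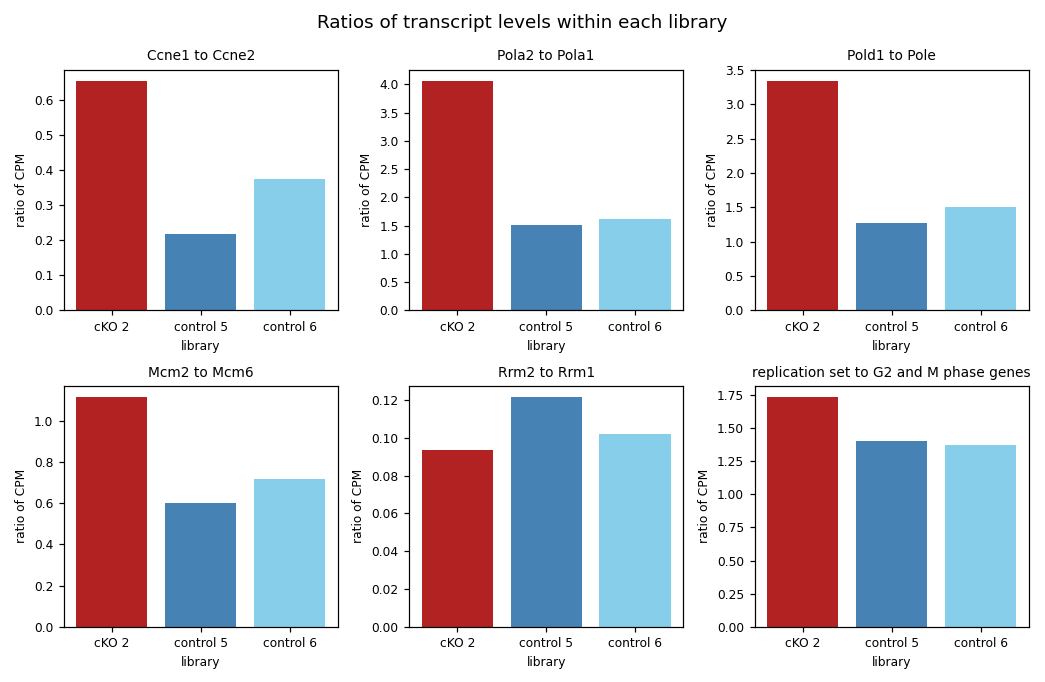
Bars give the ratio of CPM of paired genes within the Arid1a cKO library, control 5 and control 6, each from 0 and with no replicate error, and the last panel gives the summed replication set over the summed G2 and M phase genes. For Pola2 to Pola1 the cKO bar stands at 4.06, against 1.51 and 1.62.

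Compared with genes of G2 and mitosis, the replication set was relatively high in the cKO library. Across 25 G2 and M phase genes the median change was -0.25 on the log2 scale. Of the 25, 14 were lowest in the cKO library (against 31.1% of all genes tested) and 7 highest (against 38.0%). edgeR and DESeq2 called 0 of them (1 and 2 at an unadjusted p under 0.05, against 6.0% of all genes by edgeR). Their summed level was 2746 CPM in the cKO library against 3669 and 3179. The summed replication set was 1.73 times that sum in the cKO library, 1.40 times in control 5 and 1.37 times in control 6. The control values differed by little and the cKO value lay above both. Hmmr, a spindle protein, had 102 CPM against 229 and 194, and Kif11, the spindle motor, had 36.6 against 65.2 and 84.0. Cenpf, a kinetochore protein, had 65.7 against 114 and 95.7. No test of the difference between the lists was made.

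Among regulators upstream of S phase, cyclin D1 and its kinase Cdk4 stood above both controls without passing the edgeR test. Ccnd1 had 190 CPM in the cKO library against 54.7 and 70.1, a log2 fold change of 1.60 (SE 0.38, adjusted p = 0.348 by edgeR). The DESeq2 Wald test called it, with an adjusted p of 0.0232, and over the alternatives with a test the adjusted p ranged from 0.0232 to 0.552. Cdk4 had 295 CPM against 149 and 167, a log2 fold change of 0.90 (SE 0.35, adjusted p = 0.797). In both genes the cKO library was far above 2 controls that lay close together. Genes on the opposite strand cover 23.4% of the exon bases of Ccnd1 and 19.7% of those of Cdk4. Tfdp1, the partner that E2F factors need to bind DNA, had 71.8 CPM against 51.4 and 40.7. Over the 16 genes of this list the median log2 fold change was -0.07. Among them the cKO library was highest in 6 (against 38.0% of all genes tested) and lowest in 4 (against 31.1%).

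Other chromatin copying factors stood on both sides of the controls. Of 8 genes, the cKO library was highest in 5 (against 38.0% of all genes tested) and lowest in 2 (against 31.1%). The median change of the 8 was 0.61 on the log2 scale. edgeR and DESeq2 called 0 of them (1 and 2 at an unadjusted p under 0.05). Nasp, a histone H1 and H3 chaperone, had 99.6 CPM against 33.7 and 49.6 (log2 fold change 1.26, SE 0.43, adjusted p = 0.68). Dnmt1, the maintenance methyltransferase that Uhrf1 recruits, had 155 CPM against 47.8 and 101. Cdca7 had 51.7 CPM against 26.4 and 33.3. The 2 lowest were Hells, at 82.8 CPM against 160 and 85.5, and Asf1b, at 55.6 against 118 and 60.1. Uhrf1 and Dnmt1 were both highest in the cKO library. For Dnmt1, on the log2 scale, the gap between the controls was larger than the cKO difference from their mean.

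Of 15 other nucleotide synthesis enzymes, the cKO library was highest in 8 (53.3%, against 38.0% of all genes tested) and lowest in 2 (13.3%, against 31.1%). Their median change was 0.11 on the log2 scale. edgeR and DESeq2 called 0 of them (1 each at an unadjusted p under 0.05). Cad, which carries the opening steps of pyrimidine synthesis, had 20.1 CPM in the cKO library against 0.447 in control 5 and 2.74 in control 6 (log2 fold change 3.67, SE 1.09, adjusted p = 0.549). Dctd had 15.7 CPM against 6.87 and 5.04, and Samhd1, which degrades dNTPs, had 192 against 125 in each control. Of 30 other replication factors, the cKO library was highest in 11 (against 38.0% of all genes tested) and lowest in 9 (against 31.1%). Their median change was -0.01, and 0 were called by edgeR or DESeq2 or reached an unadjusted p under 0.05. Donson and Wdhd1, both fork components, had 12.8 CPM against 46.2 and 19.4 and 53.9 against 140 and 73.3, and the fork protection gene Timeless had 76.3 against 35.7 and 51.0.

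**Figure D4:**
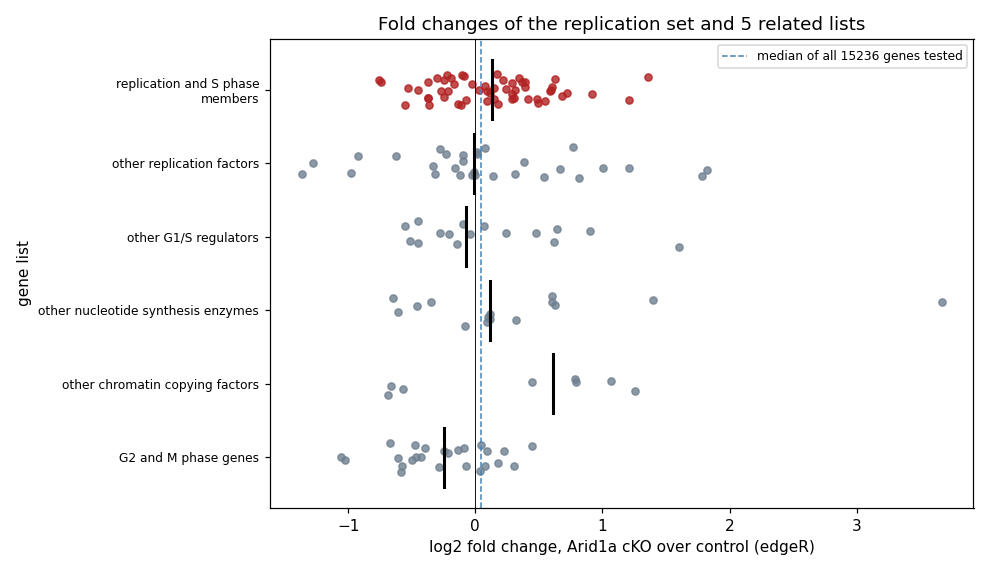
Log2 fold change, Arid1a cKO over control by edgeR, of each tested gene in the replication and S phase set (red) and in 5 related lists (grey), with list medians as black bars and the median of all 15236 genes as a dashed line. The replication set is centred on 0.13 and the G2 and M phase genes on -0.25.

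In the authors' deposited tables, each of which sets the cKO library beside 1 control without TMM scaling, 34 of the 57 members were above control 5 and 45 were above control 6. The share of all genes above each control there was not counted, so these counts do not show a rise particular to the set. In the fit with library totals alone, the median log2 fold change of all genes was 0.17. Pold1 was the member marked significant in the authors' deposited table with control 5, at 4.19-fold, where 29.5% of all genes were marked. E2f2 was the member marked in the authors' deposited table with control 6, at 3.01-fold, where 18.7% of all genes were marked. Neither gene was marked in the other of the authors' deposited tables, where Pold1 stood at 2.08-fold and E2f2 at 2.16-fold. Mcm2, at 1.66-fold over control 5, was unmarked though its p was 2.14e-103 by the authors' unnamed test. The mark thus does not follow the p-value alone.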

How the data were processed

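The tools named are TopHat2 2.0.12, Bowtie2 2.2.3 and HTSeq 0.6.0, with build mm9, per the submitters' processing notes. The file positions are those of GRCm38: 89.4% of 16618 gene IDs had the same position in GENCODE M21. The authors deposited, for each gene, raw read counts, CPM (with a count of 0 written as 0.5 reads), a linear fold change (ratio), a log2 fold change and p-values of an unnamed test.

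The 16655 genes in both tables were analysed. In R 4.3.3, edgeR 4.0.16 (filterByExpr, TMM, quasi-likelihood F test, two-sided) was fitted to 15236 genes with Benjamini-Hochberg adjustment and a threshold of 0.05. The same code was also run on simulated counts. Every change put into those counts was larger than that of any member, so the run does not show how often changes of the members' size would be called. The residual degree of freedom is 1, from the controls, whose spread the cKO library is taken to share. Both edgeR and DESeq2 draw the spread of a gene towards that of all genes, so an SE is not the spread of the 2 controls alone. Nothing in the labels ties the samples to separate animals: the p-values then reflect sample-to-sample spread, possibly technical. Library log2 ratios used a prior of 2 reads. Levels between genes were compared per kilobase of GENCODE M21 exon. Poisson intervals are exact, at the 95% level, and cover counting error only. The kit named in the labels does not mark strand, and opposite-strand genes covered at least 10% of exon bases in 10 members.

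The members, lists and rules were chosen with earlier results of these data known. The rule gave values in every library for the most abundant gene of each role, genes at an unadjusted p under 0.05 or 25% above or 20% below both controls, the E2F and cyclin E genes and Pcna. The other members with such values were added after they were seen. In each related list it named the 3 genes with the smallest p among those averaging at least 5 CPM. Hells and Asf1b were added after their values were seen. Alternatives were DESeq2 1.42.0 size factors and Wald test, upper-quartile factors, library totals, other filters, genes in either table, and leaving out each control.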

Additional observations from a re-analysis of the deposited data

How the results depend on the processing

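The count of 0 members called held under all 7 alternatives with a test. The number of all genes called moved from 6 to 0 when the scaling used size factors from DESeq2 or upper quartiles, or when no filter was applied (895, 818 and 948 genes at an unadjusted p under 0.05), to 44 among genes at 5 CPM or more, to 10 with genes in either table and to 223 with the DESeq2 Wald test. The cause was not tested. With library totals alone, which move the median of all genes from 0.05 to 0.17, the cKO library was lowest in 8 members and highest in 30, and Rpa1, Lig1 and Cdk2 changed sign, to 0.0135, 0.0218 and 0.0381. Of 203 combinations of a named member and an alternative with a test, 200 kept their direction and side of the threshold. Leaving out each control in turn leaves 1 library a group and no test. After rescaling, the cKO library was above the remaining control in 29 to 36 members and below it in 20 to 27, and the members' median log2 fold change ranged from 0.00 to 0.19, lowest without control 6. No paired analysis was possible because the groups share no replicate number. Depth limits Cdc45, with 45 to 92 reads, and Fen1, with at most 5.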
